A study of Glycine max with 8 samples.

Results

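Salt and mock treatment were compared in wild-type soybean (Glycine max) seedlings, using 4 of the 8 RNA-seq libraries of a study of salt stress. The members were chosen by their labels: 2 libraries from seedlings kept in 150 mM NaCl for 6 h (WT NaCl 1 and 2) and 2 from seedlings given a mock treatment for 6 h (WT mock 1 and 2). All 4 came from the conventional line WEI6823, labelled wild type for GmSIN1, at an age of 2 weeks in hydroponic culture. The other 4 libraries came from seedlings labelled as GmSIN1 over-expressing (OE mock and OE NaCl, 2 each). They were used to look at the same loci in separate plants, and in an alternative fit of all 8 libraries. RNA was taken from roots and from leaves and combined in equal parts, so each value averages over both organs, and a response of roots or of leaves alone would appear smaller than it was. In such a mixture, fewer cells of a type and less RNA per cell cannot be told apart.

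As background, salt reaches a plant first as an osmotic shock at the root and later as sodium that accumulates in the shoot. Plants answer with abscisic acid signalling, closure of stomata, compatible solutes such as proline, late embryogenesis abundant proteins, and sodium export or storage in the vacuole by exchangers. Transcripts of these pathways are commonly followed within hours of treatment, in roots and leaves apart.

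The deposited files carry locus IDs without names, and 0 of 47268 IDs matched the 59048 genes of the reference table (Glycine_max_v4.0). The gene lists for these pathways, and the marker lists for leaf, root, nodule, seed and flower, could therefore not be applied, and the labelled organs were not checked against markers. Loci are described by ID, chromosome and longest coding length, with no role given.

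The WT libraries held 5980170 to 7199775 expected counts (reads assigned to gene models, with shared reads divided among models). A count was recorded at 40101 to 40576 loci per library, at 36705 loci in all 4 and at 44423 in at least 1. Loci seen in a single library numbered 3078, and none of them had more than 33.1 counts. At this depth 3 counts correspond to 0.417 to 0.502 CPM (counts scaled to the library total), so rarer transcripts carry large counting error.

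The distribution of relative levels over the expressed loci was almost the same with and without salt. Levels are given as TPM, in which counts are divided by length and scaled to the library total. Every library thus has the same TPM total, and a change in the total amount of mRNA could not be seen. At least 1 TPM was reached by 33089 loci in WT mock 1, 33098 in WT mock 2, 33020 in WT NaCl 1 and 33176 in WT NaCl 2. The WT mock values lay between the WT NaCl values, and 33188 loci reached 1 TPM in the mean of the 4 libraries. At least 10 TPM was reached by 16138 and 16179 loci in the mock libraries and by 16294 and 16340 in the NaCl libraries, which lay slightly above both mock values.

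Transcript abundance was concentrated in few loci. The loci needed for 50% of all TPM numbered 1631 and 1644 in WT mock 1 and 2, and 1665 and 1671 in WT NaCl 1 and 2. The 10 most abundant loci held 6.76% and 6.62% of TPM in the mock libraries and 6.63% and 6.57% in the NaCl libraries. By mean level, 45 loci stood at 1000 TPM or more and held 12.5% of TPM, 1644 loci at 100 to 1000 TPM held 37.8%, and 14533 loci at 10 to 100 TPM held 41.7%. The 16966 loci at 1 to 10 TPM held 7.55%. By TPM, which divides by length, abundant loci were short. The median coding length was 537 bases in the highest of these classes, 650 in the next, 1092 at 10 to 100 TPM and 1161 at 1 to 10 TPM. In CPM, which does not divide by length, short loci did not stand higher. Among loci with a mean of 10 CPM or more, the median level was 21.8 CPM under 300 bases and 45.2 CPM at 5000 bases or more.

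**Figure D1:**
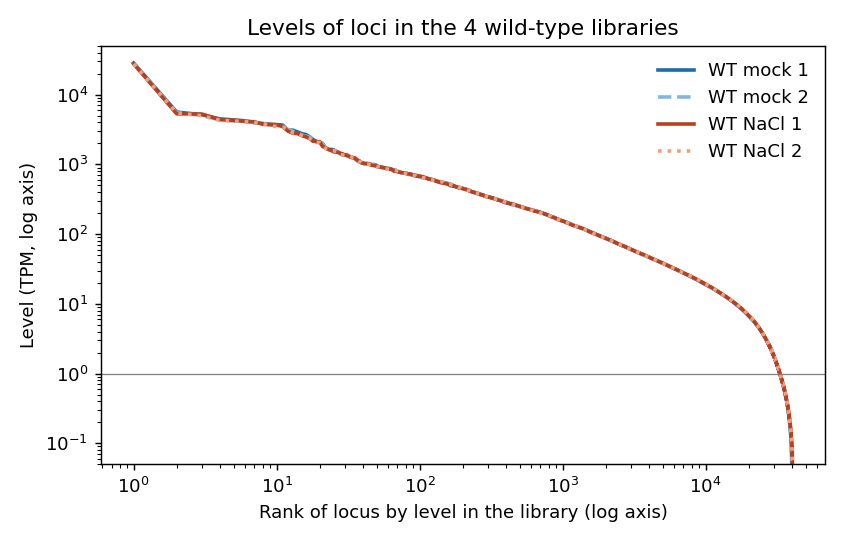
Level of each locus (TPM, log axis) against its rank in the library (log axis) for the 4 wild-type libraries, with a grey line at 1 TPM. The 4 curves lie on top of each other, from 27663 to 28392 TPM at rank 1 to ranks 33020 to 33176, where they cross 1 TPM.

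One locus stood far above all others. Glyma.07G014500, on chromosome 7 with a coding length of 765 bases, had 28392 and 27837 TPM in WT mock 1 and 2 and 27665 and 27663 TPM in WT NaCl 1 and 2. It alone held 2.77% to 2.84% of TPM, and both NaCl values lay just below both mock values. In CPM its log2 fold change was -0.04 ± 0.01 (standard error; edgeR adjusted p = 0.274), so the difference did not pass the test.

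The locus ranked next, Glyma.04G180400 on chromosome 4 (1662 bases), had 5628 and 5462 TPM in mock and 5311 and 5473 TPM in NaCl, and the groups overlapped. The 15 most abundant loci were the same in all 4 libraries and lay on 11 chromosomes. Of these, 14 had a coding length under 1000 bases. Their log2 fold changes lay between -0.14 and 0.01, 13 of the 15 being below 0, and the lowest edgeR adjusted p was 0.0523.

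Among the 100 most abundant loci, 91 belonged to the top 100 of every library. The largest absolute log2 fold change among them was 0.29, and for 99 of them the 95% interval of the change lay within 1.2-fold in either direction. The edgeR test called 0 of the 100, where it called 0.0484% of all 30986 tested loci. An unadjusted edgeR p under 0.05 was found for 25 of the 100, against 6.57% of all. That share over all loci includes many with lower counts. Among all 1643 loci at 100 to 1000 CPM, 162 were higher and 79 lower in NaCl at this threshold. DESeq2 called 0 of the 100 and 1 locus in all (0.00323%), and limma-voom called 5 of the 100 and 22 loci in all (0.071%).

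Each chromosome contributed a steady part of the transcriptome. Chromosome 7 held most, at 7.82% and 7.71% of TPM in mock and 7.69% and 7.65% in NaCl, and chromosome 16 least, at 3.20% and 3.21% in mock and 3.19% and 3.20% in NaCl. The median log2 fold change of the loci of one chromosome lay between -0.01 and 0.00 over all 20 chromosomes. Chromosome 13 varied between libraries of the same group, at 6.78% and 7.06% in WT mock 1 and 2 and 6.89% and 7.18% in WT NaCl 1 and 2. This spread within groups was larger than the difference between their means.

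Shares of the models within a locus, which differ by splicing or ends, varied nearly as much within a treatment as across treatments. Among 5077 loci with at least 2 models and 100 counts in every WT library, the same model led in all 4 libraries at 4204 (82.8%). Both mock libraries shared one leading model and both NaCl libraries another at 81 loci (1.60%). The leading model differed between the 2 mock libraries at 526 loci and between the 2 NaCl libraries at 450. In the median locus the largest difference in model share was 1.86 percentage points within mock, 1.63 within NaCl, and 1.93 to 2.15 in the 4 pairs of a mock with a NaCl library. Some loci differed far more. The difference exceeded 25 points at 672 loci (13.2%) within mock and 634 (12.5%) within NaCl. In the 4 pairs across treatments it did so at 647 to 689 loci (12.7% to 13.6%). The leading model held a median share of 64.0%. Division of shared reads among models is an estimate whose error is not known here.

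The first question about salt was how large its changes could have been. Pairs of libraries from the same treatment differed nearly as much as pairs across treatments. For loci at 10 to 30 CPM the median absolute log2 ratio was 0.142 within mock, 0.141 within NaCl and 0.140 to 0.151 in the 4 pairs across treatments. At 100 to 1000 CPM these values were 0.0496, 0.0486 and 0.0542 to 0.0637, so all 4 pairs across treatments lay above both pairs within a treatment. This held in no other class of level. At 30 to 100 CPM the values were 0.0867, 0.0830 and 0.0863 to 0.0957. For the 35 loci at 1000 CPM or more they were 0.0221, 0.0342 and 0.0241 to 0.0345. The counts of every pair nevertheless differed by more than sampling noise. Over loci with a sum of 20 counts or more, chi-square per degree of freedom was 1.34 to 1.59, and over loci whose counts lay within 0.01 of a whole number in all 4 libraries 1.19 to 1.37 (largest p = 3.74e-17). No pair was therefore merged as 1 sample.

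**Figure D2:**
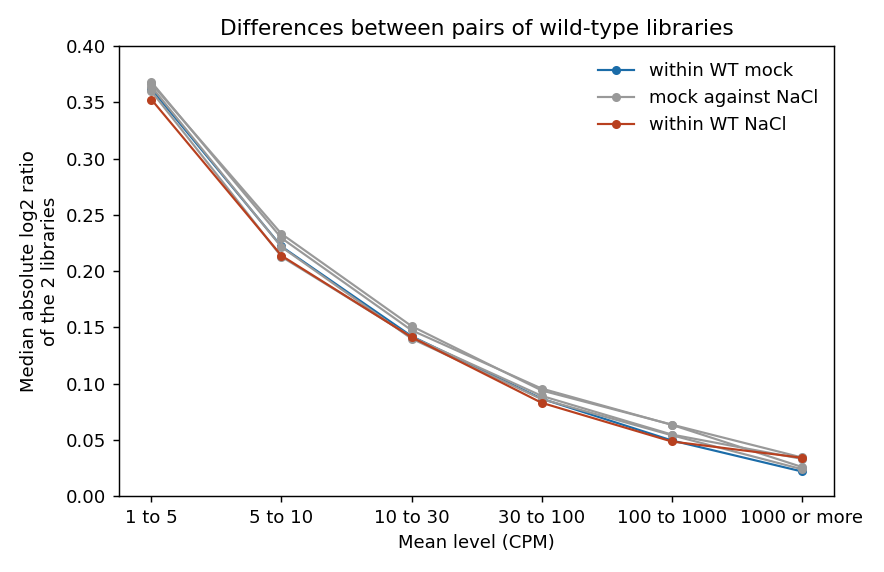
Median absolute log2 ratio of CPM between 2 wild-type libraries, by mean level (CPM), for the pair within mock (blue), the pair within NaCl (red) and the 4 pairs across treatments (grey). All 6 lines fall from 0.352 to 0.368 at 1 to 5 CPM to below 0.07 at 100 CPM and above.

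Changes of 2-fold lay outside the fitted intervals of nearly all well-measured loci. These intervals rest on the spread between the 4 libraries, which may be technical. They describe the mixed RNA, so a larger change in roots or leaves alone is not excluded by them. Among the 17882 loci with a mean of 10 CPM or more, 0 had a fitted change of 2-fold (5 without WT mock 2, 3 without WT NaCl 2, 1 without WT NaCl 1), and 14 had one of 1.5-fold or more, 9 higher and 5 lower in NaCl. The 95% interval of the fold change lay within 2-fold in either direction for 17871 of them (99.9%), within 1.5-fold for 16880 (94.4%) and within 1.2-fold for 5271 (29.5%). The median change was 0.00 on the log2 scale, and 90% of loci lay between -0.22 and 0.22. Precision fell with level: the interval of the median locus reached 1.08-fold in either direction at 100 to 1000 CPM, 1.23-fold at 10 to 30 CPM and 1.69-fold at 1 to 5 CPM. At 1 to 5 CPM the interval lay within 2-fold for 46.0% of 7643 loci, so 2-fold changes of rare transcripts were often not detectable.

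Few loci passed the test for salt. With the 4 WT libraries fitted in edgeR's quasi-likelihood test, 15 of 30986 loci (0.0484%) had an adjusted p under 0.05. Of these 12 (0.0387%) were higher and 3 (0.00968%) lower in NaCl, and they lay on 8 chromosomes. The groups did not overlap at any of the 15, but they did not overlap at 35.6% of all loci tested either, 17.9% with NaCl above mock and 17.7% below. The series' design speaks of biological replicates without saying which plants each came from, so the p-values reflect the spread between these libraries, which may be technical. At 12 of the 15 loci the counts were not within 0.01 of whole numbers in all 4 libraries, as happens when reads are shared with other loci. The levels of these 12 are uncertain to that extent. The called loci were not unusual in this: 3 of the 15 had such whole counts, as had 14.1% of all tested loci. With 1 library left out, the spread comes from the group that still has 2 libraries, and the lone library is assumed to vary like them. In such fits the count was 21 without WT mock 1, 106 without WT mock 2, 60 without WT NaCl 1 and 54 without WT NaCl 2; it was 1 with DESeq2 and 22 with limma-voom. With all 8 libraries sharing one spread, edgeR called 0, with 111 loci at an unadjusted p under 0.05. Whether the salt treatment took effect in the WT seedlings was not tested, since no measure of it other than these counts was used here.

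**Figure D3:**
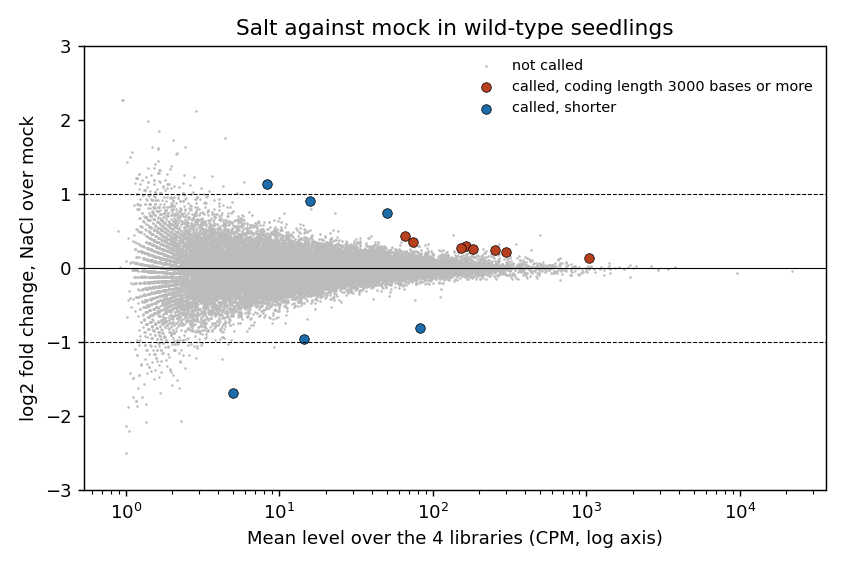
log2 fold change of NaCl over mock against mean level (CPM, log axis) for tested loci, with dashed lines at 2-fold. Called loci of 3000 bases or more (red) lie between 0.14 and 0.43 at 65.5 to 1042 CPM, and shorter called loci (blue) lie farther from 0. The called locus with 0 counts in mock lies off the scale.

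The locus with the lowest p was Glyma.13G360200, on chromosome 13 with a coding length of 2328 bases and 1 listed model. It had 0 expected counts in WT mock 1 and 2, and 71.9 and 43.3 in WT NaCl 1 and 2, which is 10.1 and 6.40 CPM. Reads were assigned to it in both NaCl libraries and in neither mock library. Its counts are not whole, so some of these reads are shared with other loci, and their division is an estimate that the fold bound does not cover. With mock set at 3 counts over the group, NaCl was at least 35.3-fold higher, or at least 42.6-fold from library 1 and 27.4-fold from library 2 (edgeR adjusted p = 9.48e-08). All 4 OE libraries also had 0 counts there, those given NaCl included.

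No other locus showed this pattern between the groups at such counts. In all, 416 loci had counts in both NaCl libraries and 0 in both mock libraries, and 335 showed the reverse, with a median of 3 counts over the group in either case. Only Glyma.13G360200 had 10 or more counts in each of the libraries where it was seen. The next highest of the 416 held 22.0 counts over both NaCl libraries, and the highest of the 335 held 19.2 over both mock libraries. A step from 0 also occurred within a treatment. A locus on chromosome 5 (2637 bases, not called) had 0 counts in WT mock 1 and 154 in WT mock 2. It had 120 and 169 counts in WT NaCl 1 and 2. In the OE libraries it had 0 and 13.8 CPM in mock and 0 and 20.9 CPM in NaCl.

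Glyma.13G023700, on chromosome 13 (2709 bases), had 89.1 and 120 CPM in mock and 41.6 and 79.3 CPM in NaCl. Both NaCl values were lower, but WT NaCl 2 lay closer to WT mock 1 than to WT NaCl 1. The log2 fold change was -0.81 ± 0.14 (standard error; edgeR adjusted p = 0.0212), and it became -0.40 without WT NaCl 1 and -1.34 without WT NaCl 2. The OE libraries showed 135 and 115 CPM in mock and 97.5 and 158 CPM in NaCl, and there the groups overlapped.

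Glyma.17G200700, on chromosome 17 (735 bases, 4 listed models), had 6.04 and 9.26 CPM in mock and 2.52 and 2.23 CPM in NaCl. Both NaCl libraries were low and close to each other, at 17.8 and 14.9 counts. The log2 fold change was -1.69 ± 0.29 (standard error; edgeR adjusted p = 0.0212), and the call was lost without WT mock 2. The OE libraries gave 3.71 and 3.35 CPM in mock and 1.64 and 3.69 CPM in NaCl, again with overlap.

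Of the remaining shorter called loci, one on chromosome 8 (213 bases) was lower in NaCl, with 20.8 and 17.2 CPM in mock and 8.26 and 11.3 CPM in NaCl. The other 3 were higher. The one on chromosome 10 (144 bases) had 5.03 and 5.44 CPM in mock and 13.6 and 9.38 CPM in NaCl. The one on chromosome 9 (720 bases) had 10.6 and 11.6 CPM in mock and 25.2 and 16.4 CPM in NaCl. The last, on chromosome 13 (2751 bases), had 23.3 and 50.3 CPM in mock and 58.1 and 68.2 CPM in NaCl, so that WT mock 2 lay nearer to the NaCl libraries than to WT mock 1. Their edgeR adjusted p-values were 0.0212 for the lower locus and 0.0440 for the 3 higher loci, and each of these calls was lost when a particular library was left out. The locus on chromosome 8 went from a log2 fold change of -0.95 to -0.82 without WT mock 1 (edgeR adjusted p = 0.0514) and to -0.74 without WT NaCl 1 (edgeR adjusted p = 0.0878). Without WT NaCl 1, the locus on chromosome 10 went from 1.13 to 0.84 (edgeR adjusted p = 0.329) and that on chromosome 9 from 0.91 to 0.56 (edgeR adjusted p = 0.460). The locus on chromosome 13 went from 0.75 to 0.33 without WT mock 1 (edgeR adjusted p = 0.362) and to 1.44 without WT mock 2.

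The other 8 called loci rose by small amounts and shared an unusual coding length. All 8 were higher in NaCl, by 1.10-fold to 1.34-fold, at mean levels of 65.5 to 1042 CPM. Their coding lengths were 3294 to 11289 bases, where the median of all tested loci was 1209 bases and 6.44% of tested loci reached 3000 bases. They lay on 5 chromosomes, and 1 of them had counts within 0.01 of whole numbers in all 4 libraries, as had 14.1% of all tested loci. In 7 of the 8, WT mock 1 was the lowest library, and 0 of the 8 kept the call without it (log2 fold changes of 0.13 to 0.36, lowest edgeR adjusted p = 0.0825).

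Glyma.05G133100, on chromosome 5 and the longest of them (11289 bases), had 142 and 151 CPM in WT mock 1 and 2 and 183 and 179 CPM in WT NaCl 1 and 2. The NaCl libraries agree closely and lie above both mock libraries. The log2 fold change was 0.30 ± 0.05 (standard error; edgeR adjusted p = 0.0212). The most abundant of the 8, also on chromosome 5 (3294 bases), had 986 and 996 CPM in mock and 1096 and 1090 CPM in NaCl, a log2 fold change of 0.14 ± 0.03 (standard error; edgeR adjusted p = 0.0440).

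**Figure D4:**
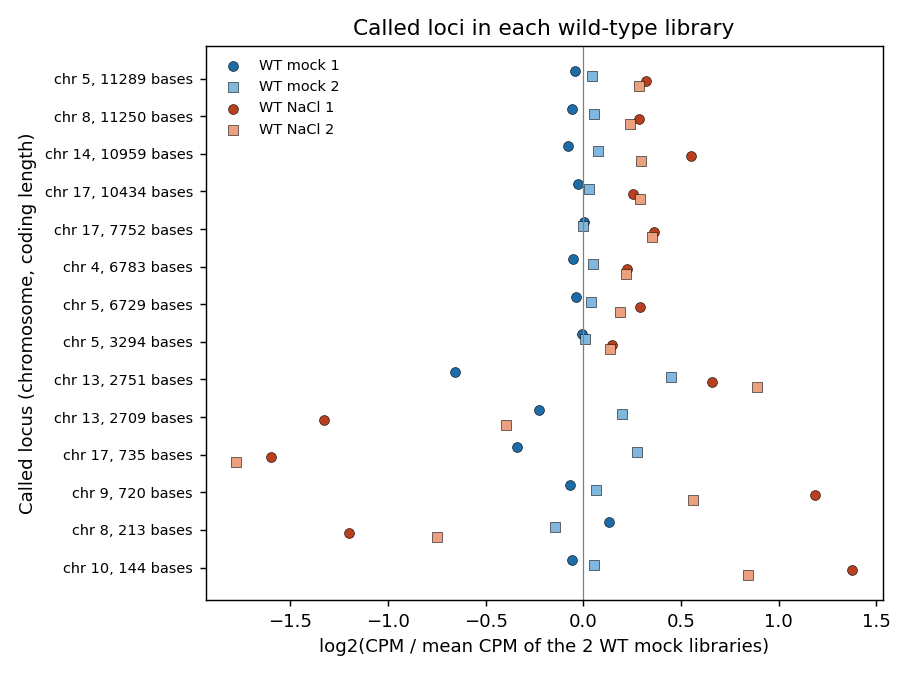
CPM of 14 called loci in each wild-type library, as log2 of the ratio to the mean of the 2 WT mock libraries, ordered by coding length (longest on top). The 8 loci of 3294 bases or more have tight values, with both NaCl libraries to the right of both mock libraries, while the shorter loci spread widely within groups. The locus with 0 counts in mock is not drawn.

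Coding length moved with the salt difference across the loci at 10 CPM or more, a pattern looked for after the called loci were seen. The median log2 fold change of NaCl over mock was -0.05 for the 309 loci under 300 bases and -0.06 for the 796 loci of 300 to 449 bases. It rose to -0.01 at 750 to 1499 bases, 0.03 at 1500 to 2999 bases and 0.08 for the 1217 loci of 3000 to 4999 bases. For the 297 loci of 5000 bases or more it was 0.15, and 274 of these (92.3%) were higher in NaCl. Of loci under 300 bases, 34.3% were. At an unadjusted p under 0.05, the longest loci had 119 higher and 0 lower in NaCl, and the loci of 300 to 449 bases 13 higher and 70 lower. Over all 17882 loci at this level 795 (4.45%) were higher and 537 (3%) lower.

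The trend was present in every pair of a mock with a NaCl library. For the loci of 5000 bases or more, the median log2 ratio of WT NaCl 1 and 2 was 0.19 and 0.16 over WT mock 1, and 0.13 and 0.12 over WT mock 2. It was 0.05 for WT mock 2 over WT mock 1, and -0.02 for WT NaCl 2 over WT NaCl 1. WT mock 1 therefore lay farthest from the others, the NaCl libraries lay together, and WT mock 2 lay between. Leaving out 1 library at a time kept the median of these loci between 0.13 and 0.18.

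The share of all expected counts that fell on loci of 5000 bases or more showed the same order. It was 1.74% in WT mock 1, 1.80% in WT mock 2, 1.98% in WT NaCl 1 and 1.96% in WT NaCl 2. The groups did not overlap, with 1.77% ± 0.0409 in mock and 1.97% ± 0.0132 in NaCl (SD, n = 2 each). A two-sided exact permutation test gave p = 0.333, the smallest value that 2 against 2 libraries allow. Across the 17882 loci, which share the same 4 libraries and are not independent replicates, coding length and log2 fold change had a Spearman rho of 0.278. It was 0.195 among the 9915 loci at 10 to 30 CPM, 0.372 among the 6289 at 30 to 100 CPM and 0.564 among the 1678 at 100 CPM or more.

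**Figure D5:**
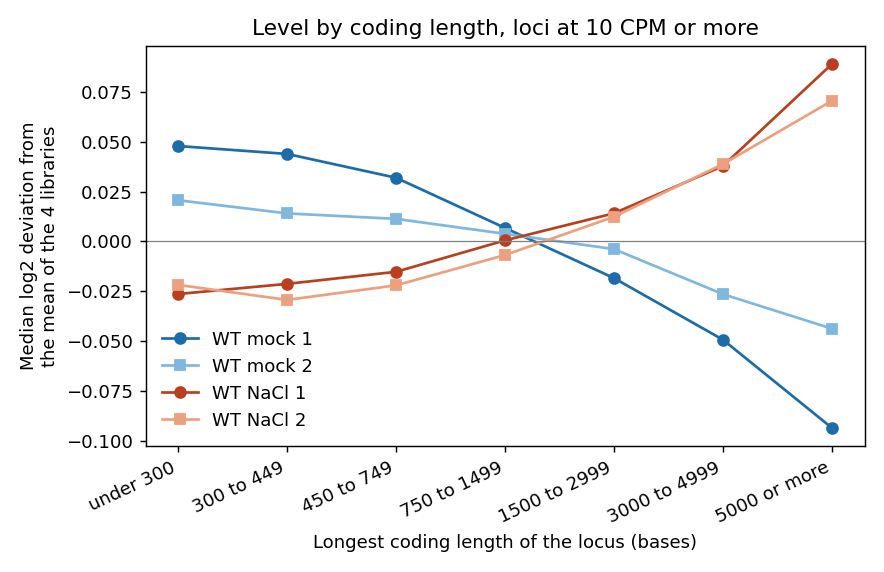
Median log2 deviation of each wild-type library from the mean of the 4, by longest coding length (bases), for loci at 10 CPM or more. Both mock libraries fall and both NaCl libraries rise with length, from 0.0478 to -0.0934 in WT mock 1 and from -0.0263 to 0.0888 in WT NaCl 1.

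Each library's trend with coding length was then removed, which by construction brings the medians of the length classes near 0. They lay between 0.00 and 0.01. In this fit 1 of 30986 loci was called, Glyma.13G360200 (edgeR adjusted p = 1.52e-06). The share of loci at an unadjusted p under 0.05 fell from 6.57% to 5.18%. The 8 long loci then had log2 fold changes of 0.05 to 0.22 (edgeR adjusted p of 0.951 to 0.977). They were among the loci to which the trend was fitted, so smaller changes in them were partly built in. The other called loci kept the size of their changes but lost the call: Glyma.13G023700 stood at -0.85 (edgeR adjusted p = 0.0605) and Glyma.17G200700 at -1.66 (edgeR adjusted p = 0.0622). With 2 libraries a group, a change with length that belongs to the treatment and one that belongs to the libraries cannot be told apart. RNA integrity is not given in the sources used here, and its part was not tested.

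The OE libraries gave a separate view of the same length classes. For the loci of 5000 bases or more, the median log2 ratio of OE NaCl 1 and 2 was -0.04 and 0.05 over OE mock 1, and 0.23 and 0.30 over OE mock 2. It was -0.26 for OE mock 2 over OE mock 1 and 0.12 for OE NaCl 2 over OE NaCl 1. In this class the OE mock libraries thus differed from each other by more than the WT groups did, and the 4 ratios had no common sign. Part of these differences was not particular to long loci. At 750 to 1499 bases the medians were 0.019 and -0.160 over OE mock 1, and 0.152 and -0.00388 over OE mock 2. OE mock 2 over OE mock 1 stood at -0.185 there. From that class to the longest, the ratio of NaCl to mock rose in every OE pair except OE NaCl 1 over OE mock 1. For loci under 300 bases the medians were 0.04 and -0.04 over OE mock 1, and 0.08 and -0.07 over OE mock 2. Of the 15 loci called in WT, 14 had a count in an OE library, and 6 of these had an OE mean that differed in the direction of WT, against 49.6% of the 30978 tested loci with such a count. At 1 of the 6, on chromosome 14 (10959 bases), both OE NaCl libraries lay beyond both OE mock libraries, as at 8.12% of all. None of the 14 (8.18% of all) showed both OE NaCl libraries beyond both OE mock libraries in the opposite direction. Whether the change differed between the genotypes was not tested.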

How the data were processed

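mRNA sequencing gave 1 deposited file per library. Expected counts and FPKM per gene model were made by the authors with RSEM, per the submitters' processing notes; neither aligner nor genome build nor annotation is given in the sources used here. All lengths listed in the WT libraries are multiples of 3, and they were therefore taken as coding lengths. The deposited FPKM equal counts per (length - 36) bases scaled to a total that exceeds the listed models by 3.66% to 3.73% of itself. Models absent from a file were set to 0. Counts were summed per locus and rounded; FPKM were summed per locus and scaled to TPM.

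The quasi-likelihood test of edgeR 4.0.16 in R 4.3.3 was used on all loci (filterByExpr, TMM, glmQLFit, glmQLFTest; 4 WT libraries; Benjamini-Hochberg, threshold 0.05). Standard errors and 95% intervals were derived from the F statistic. Alternatives used DESeq2 1.42.0, limma 3.58.1 and other settings, and the scripts were tested on simulated data. In simulated WT counts the test called 6 of 70 changes of 1.2-fold, 48 of 70 of 1.5-fold and 68 of 70 of 2-fold. It made 6 false calls there, so changes as small as 1.2-fold were mostly missed. The length trend (lowess, as an offset) was removed after the data were seen, and the 1.2-fold limit for intervals was also set then. Members and lists were chosen with earlier results of these data known. IDs printed are the 2 loci with the lowest p in each direction and the 2 with the highest TPM; the planned names by gene list were not possible. Totals were 5980170 to 7199775 counts, intervals rest on the fitted spread of these 4 libraries, and floors (3 counts) cover counting error only.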

Additional observations from a re-analysis of the deposited data

How the results depend on the processing

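The count of 15 called loci was 18 with RLE scaling, 17 with a stricter filter and 22 with limma-voom, which all lie within 1.5 times of it. It became 5 with upper-quartile scaling, 76 with no filter, 1 with DESeq2, 44 with the replicate block, and 0 with all 8 libraries in the fit (111 loci at an unadjusted p under 0.05) or with gene models as units (2238 at an unadjusted p under 0.05). Leaving out 1 WT library gave 21 to 106 calls, the highest without WT mock 2, and of the 15 loci 5 kept the call without WT mock 1 and 8 without WT NaCl 1. Removal of each library's length trend gave 1 call, or, with 1 library left out as well, 17 without WT mock 1, 79 without WT mock 2, 38 without WT NaCl 1 and 20 without WT NaCl 2. Both length settings and the use of loci with counts within 0.01 of whole numbers (13 calls among 4356) were chosen after the data were seen. None of the 15 loci changed direction in the refits at locus level that used all loci, each with the length trend kept or, with the 4 libraries together, removed; all 15 were called with RLE scaling, no filter, the stricter filter and the replicate block. Libraries of equal number did not deviate together (r = 0.0309 across 17882 loci, which are not independent), so the numbers were not read as pairs. The count of 0 loci with a 2-fold change became 5 at 5 CPM, and 0 to 5 with 1 library left out. The 33188 loci at 1 TPM became 22787 at 5 TPM. The gene list medians and organ marker sums were not run, since no ID could be matched to a name. Depth limits the loci below 10 CPM most.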
